A study of Mus musculus with 30 samples.

Results

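Livers of mice irradiated with 56Fe ions were compared with livers of non-irradiated mice at month 9, 270 days after irradiation. The labels assign 3 libraries to each group, so the comparison used 6 of the 30 libraries of the study and 19685 genes tested of 51826 identifiers in the table. The irradiated male mice, of a strain the labels give as C57BL16, had received 0.2 Gy of 56Fe at 600 MeV/n, and the controls were males of that strain with no irradiation, sampled at the same time. RNA came from cryotome slices of frozen left liver lobes, was freed of ribosomal RNA and was sequenced as paired 50-base reads. The other 24 libraries, from months 1, 2, 4 and 12, entered the fit for its estimate of spread and served as the background for time. The labels call the 3 samples of each group biological replicates and give no cage, litter or processing batch. Whole tissue was sequenced, so that fewer cells of a type and less RNA per cell cannot be told apart in any result below.

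56Fe is a heavy charged particle of the kind met in cosmic rays, and it deposits its energy densely along each track. Hepatocytes make up most of the liver and carry out its lipid, bile acid and drug metabolism, beside sinusoidal endothelial cells, Kupffer cells and stellate cells. Heat shock proteins are chaperones that fold or hold client proteins, and many of their genes are driven by the transcription factor HSF1, which binds inverted repeats of the element GAA in their promoters.

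All 6 libraries carried the hepatocyte program. The summed level of 19 measured hepatocyte markers was 114871 to 123609 CPM in 56Fe libraries and 106607 to 125162 CPM in controls, where CPM are read counts scaled to a common library size by the TMM factors of edgeR. Total counts were 13359559 to 16569310 in 56Fe libraries and 17765173 to 20215995 in controls, so depth did not overlap between the groups and moved with irradiation at month 9. Mitochondrial ribosomal RNA took 0.258% of counts in 56Fe replicate 1, 0.898% in replicate 2 and 0.812% in replicate 3, and 0.645% to 0.984% in controls, and replicate 1 also had the fewest genes with a count, 30598. The part of depth or RNA quality in the results was not tested. Exocrine pancreas transcripts, a sign of tissue carried over from a neighbouring organ, summed to 19.1 to 46.4 CPM over 2 measured genes in 56Fe libraries and to 13.7 to 44.7 CPM in controls.

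The 3 irradiated libraries did not resemble each other as closely as the 3 controls did. Across the 19685 genes, Pearson's r of log2(CPM + 1) between 56Fe replicates 1 and 2 was 0.975, and it was 0.986 between 1 and 3 and 0.984 between 2 and 3. Control pairs ranged from 0.992 to 0.996. Replicate 2 of the irradiated group lay closer to the controls than to its own group, with r = 0.994 to the control mean, against 0.977 for replicate 1 and 0.986 for replicate 3. These are correlations across genes, which are not independent replicates.

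The median gene had an SD of 0.208 log2 units among 56Fe libraries and 0.146 among controls. Genes with a range of over 1 log2 unit within their group numbered 1524 in the irradiated group and 334 in the controls. In 300 genes 56Fe replicate 1 lay over 1 log2 unit from both other irradiated libraries, mostly above them, at 230 genes. In 354 genes replicate 2 did so, more often below them, at 205 genes. Replicate 3 did so in 87 genes. Among the controls replicate 2 stood apart in 138 genes, replicate 1 in 22 and replicate 3 in 9.

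**Figure D1:**
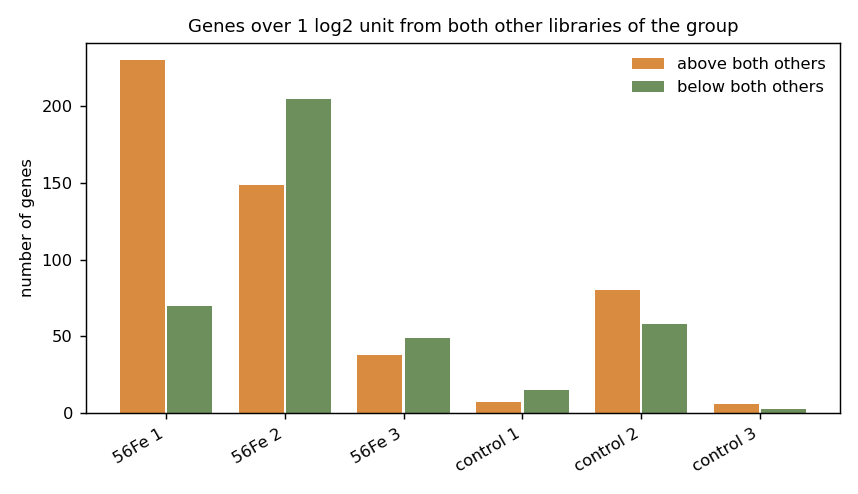
Number of genes for which 1 library lay over 1 log2 unit above (orange) or below (green) both other libraries of its own group, on log2(CPM + 1), for the 3 56Fe and the 3 control libraries of month 9. Replicates 1 and 2 of the 56Fe group have 300 and 354 such genes, and control replicates 1 and 3 have 22 and 9.

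More genes were higher than lower in irradiated livers at month 9. With edgeR's quasi-likelihood test and an adjusted p under 0.05, 228 genes rose and 98 fell, together 1.66% of all genes tested (1.16% higher and 0.498% lower). The median change of the genes that rose was 1.93-fold, and 105 of them changed at least 2-fold. The genes that fell had a median change of 1.67-fold, with 16 at 2-fold or more, while the median log2 fold change of all tested genes was 0.00. Of the 326 genes, 280 were protein coding. The excess of higher genes depended on the setting, with 435 higher and 403 lower in limma voom with sample weights, and 12 higher and 17 lower in edgeR without control replicate 2.

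The rises were carried by 56Fe replicates 1 and 3. Among the 228 genes that rose, replicates 1 and 3 lay above all 3 controls in each gene, whereas replicate 2 did so in 178. In the other 50 it did not, and in 5 of these it lay below all controls. Replicate 2 was the lowest irradiated library in 197 of the 228, and replicate 1 was the highest in 170. The median distance from the control mean was 1.12 log2 units in replicate 1, 0.29 in replicate 2 and 0.83 in replicate 3. In the 98 genes that fell all 3 irradiated libraries lay below all 3 controls, at median distances of -0.87, -0.44 and -0.74. Replicate 2 was again the nearest to the controls, in 80 of the 98. For comparison, the 3 irradiated libraries lay above the 3 controls in 9.4% of all tested genes and below them in 8.77%, and replicate 2 was the lowest irradiated library in 6826 of 19685. The called genes were picked by a test on these same libraries, which favours genes whose groups lie apart, so these shares are a description only.

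**Figure D2:**
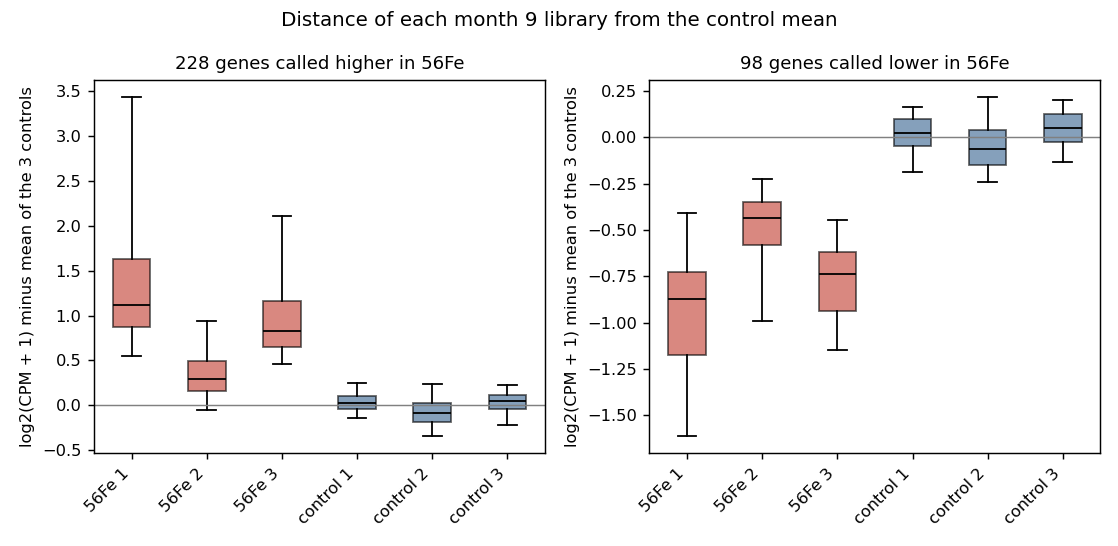
Distance of each library from the mean of the 3 controls, in log2(CPM + 1), over the 228 genes higher (left) and the 98 genes lower (right) in 56Fe livers. Boxes give the quartiles, lines the medians and whiskers the 5th and 95th percentiles. The 56Fe medians are 1.12, 0.29 and 0.83 for higher genes and -0.87, -0.44 and -0.74 for lower genes.

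The number of genes past the threshold rests on single libraries and on the shared estimate of spread. Leaving out 1 library at a time gave 0 genes without 56Fe replicate 1 (2172 at an unadjusted p under 0.05), 1439 without replicate 2 and 39 without replicate 3, and 17, 29 and 16 without control replicates 1, 2 and 3. The 6 libraries fitted alone in edgeR gave 0 genes, with 2079 at an unadjusted p under 0.05, against 3166 in the fit of 30 libraries. All 326 genes kept their sign in each of these fits that tested them. They were called on these same libraries, so a kept sign is no separate evidence of an effect.

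Genes of heat shock proteins and their cochaperones were higher in irradiated livers. Of 21 measured members of this list, which includes the mitochondrial chaperonin genes Hspd1 and Hspe1, 6 rose and 0 fell, against a background of 1.16% of genes higher, and the list's median log2 fold change was 0.80. The 6 were Dnaja1 and Dnajb1, cochaperones that pass clients to Hsp70, Hspa1b, the stress-inducible Hsp70, Hsph1, an Hsp110 nucleotide exchange factor, Hsp90aa1, the inducible Hsp90, and Chordc1, a cochaperone of Hsp90. The list's median distance from the control mean was 0.99 log2 units in 56Fe replicate 1, 0.23 in replicate 2 and 0.82 in replicate 3. The summed level of the 21 genes was 6813, 3773 and 6219 CPM in the 3 irradiated libraries and 3177, 2961 and 3076 CPM in the controls. The number of members past the threshold was 12 without 56Fe replicate 2, 0 without replicate 1 and 1 without any other single library, and the median stayed between 0.64 and 0.92. Over all genes, 1439 of 20836 passed without 56Fe replicate 2 and 0 without replicate 1.

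Promoters are shown for the 4 of these 6 genes in which a motif made of the element bound by HSF1 was found, 1 promoter per gene, so they are chosen for a match. Each is a RefSeq promoter on GRCm38.p6, running from 250 bases before to 50 after the gene start, in the direction of transcription. Capitals mark every match to GAANNTTC or TTCNNGAA, the 2 orientations of inverted GAA repeats with the same spacer, NN. Each motif is its own reverse complement, so a match holds on both strands, and matches may overlap. The Hspa1b window lies at chr17:34959189-34959488 on the minus strand, Hsph1 at chr5:149636287-149636586 on the minus strand, Dnaja1 at chr4:40722218-40722517 on the plus strand and Chordc1 at chr9:18292017-18292316 on the plus strand.
Hspa1b: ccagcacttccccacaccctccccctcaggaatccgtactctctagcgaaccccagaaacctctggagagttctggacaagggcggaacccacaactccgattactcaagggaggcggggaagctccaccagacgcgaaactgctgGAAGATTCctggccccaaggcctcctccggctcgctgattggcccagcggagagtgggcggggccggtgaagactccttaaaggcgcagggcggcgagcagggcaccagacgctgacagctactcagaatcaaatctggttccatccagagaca
Hsph1: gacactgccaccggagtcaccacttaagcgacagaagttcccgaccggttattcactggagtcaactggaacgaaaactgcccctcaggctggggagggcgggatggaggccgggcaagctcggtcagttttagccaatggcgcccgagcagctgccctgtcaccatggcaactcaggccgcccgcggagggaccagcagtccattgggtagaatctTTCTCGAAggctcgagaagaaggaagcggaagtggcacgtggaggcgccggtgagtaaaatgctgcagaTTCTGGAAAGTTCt
Dnaja1: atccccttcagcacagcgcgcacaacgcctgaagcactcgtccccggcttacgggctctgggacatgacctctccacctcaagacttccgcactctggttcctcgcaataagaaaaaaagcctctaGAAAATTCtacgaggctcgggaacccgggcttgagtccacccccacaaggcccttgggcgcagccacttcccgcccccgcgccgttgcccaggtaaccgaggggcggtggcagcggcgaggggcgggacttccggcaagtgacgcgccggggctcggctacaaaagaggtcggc
Chordc1: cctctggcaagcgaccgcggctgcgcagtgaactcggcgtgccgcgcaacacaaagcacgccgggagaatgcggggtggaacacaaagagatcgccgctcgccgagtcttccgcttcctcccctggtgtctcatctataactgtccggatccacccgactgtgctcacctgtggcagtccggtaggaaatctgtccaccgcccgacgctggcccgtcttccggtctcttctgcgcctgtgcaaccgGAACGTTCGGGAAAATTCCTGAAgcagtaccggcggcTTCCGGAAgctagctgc

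The Hspa1b window holds 1 match, which starts 104 bases before the gene start, and the Dnaja1 window holds 1, at 124 bases before it, while the other 2 Dnaja1 promoters in the table have 0. Hsph1 has 3 matches and Chordc1 has 5, partly overlapping. Neither of the 2 Dnajb1 promoters in the table has a match. Of 17 heat shock genes with a promoter in the table, 12 had a match in at least 1 promoter, 4 of the 5 that rose (Hsp90aa1 is not among them) and 8 of the 12 that did not pass the test. Matches occurred in 15.1% of all 32851 promoters and in at least 1 promoter of 16.97% of 27025 genes. A match is a description of these letters and not a measured binding site.

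Dnaja1 (chromosome 4, 40722150 to 40737149) had 708, 237 and 612 CPM in the 56Fe livers and 157, 167 and 161 CPM in the controls. All irradiated values lay above all control values, and replicate 2 was the lowest of them. The log2 fold change was 1.68 ± 0.26 (SE), with an adjusted p of 0.00395 in edgeR. Reads of this gene can come from genes that overlap it on the opposite strand, Smu1 and Gm6297, because the strand setting of the counts is not given in the sources used here. The same limit holds for Tes, Chka, Cxadr, Ugt1a1, Cdkn1a, Esrra, Pkn3, Gnas, Eng, Zc3h12c, Dusp5 and Fst, whose exons also overlap a gene on the opposite strand.

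Dnajb1 (chromosome 8, 83608193 to 83612653) had 247, 31.6 and 205 CPM in 56Fe livers and 31.5, 24.6 and 24.9 CPM in controls. Replicates 1 and 3 stood far above the controls, while replicate 2 exceeded the highest control by only a small margin. The log2 fold change was 2.58 ± 0.45 (SE; edgeR, adjusted p = 0.0122). Hsph1 had 224, 97.7 and 292 CPM in 56Fe livers and 63.5, 40.3 and 51.9 CPM in controls, a log2 fold change of 1.98 ± 0.45 (SE) with all irradiated libraries above the controls (edgeR, adjusted p = 0.0289).

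Hspa1b had 87.6, 17.3 and 90.4 CPM in 56Fe livers and 17.7, 8.90 and 8.33 CPM in controls. Here replicate 2 overlapped the controls, and the log2 fold change was 2.48 ± 0.62 (SE; edgeR, adjusted p = 0.0461). Its near-identical neighbour Hspa1a had at most 0.691 CPM in any library of month 9 and up to 2.36 CPM in those of other months, so the split of reads between the pair is uncertain. Hsp90aa1 had 495, 231 and 603 CPM in 56Fe livers and 166, 165 and 158 CPM in controls (log2 fold change 1.44 ± 0.37 SE, adjusted p = 0.0497 in edgeR), and with the replicate number as a block it no longer passed, at 1.43.

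Chordc1 was the most even of the 6 across irradiated livers. It had 113, 97.0 and 117 CPM in 56Fe livers and 61.7, 63.6 and 63.2 CPM in controls, 109 ± 10.7 against 62.8 ± 0.972 CPM (SD, n = 3 each). All irradiated values lay above the controls, with a log2 fold change of 0.80 ± 0.17 (SE; edgeR, adjusted p = 0.0152).

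Of the 15 members that did not pass, 14 had positive log2 fold changes. Hspa8, the constitutive Hsp70, had 1746, 881 and 1259 CPM in 56Fe livers and 720, 690 and 608 CPM in controls, without overlap, at a log2 fold change of 0.95 and an adjusted p of 0.0545 in edgeR. Hspb1, a small heat shock protein, had 61.5, 8.57 and 23.8 CPM in 56Fe livers and 10.2, 12.1 and 11.2 CPM in controls, so that replicate 2 lay below all controls. Cryab, another small heat shock protein, was the 1 member with a negative value, -0.28.

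**Figure D3:**
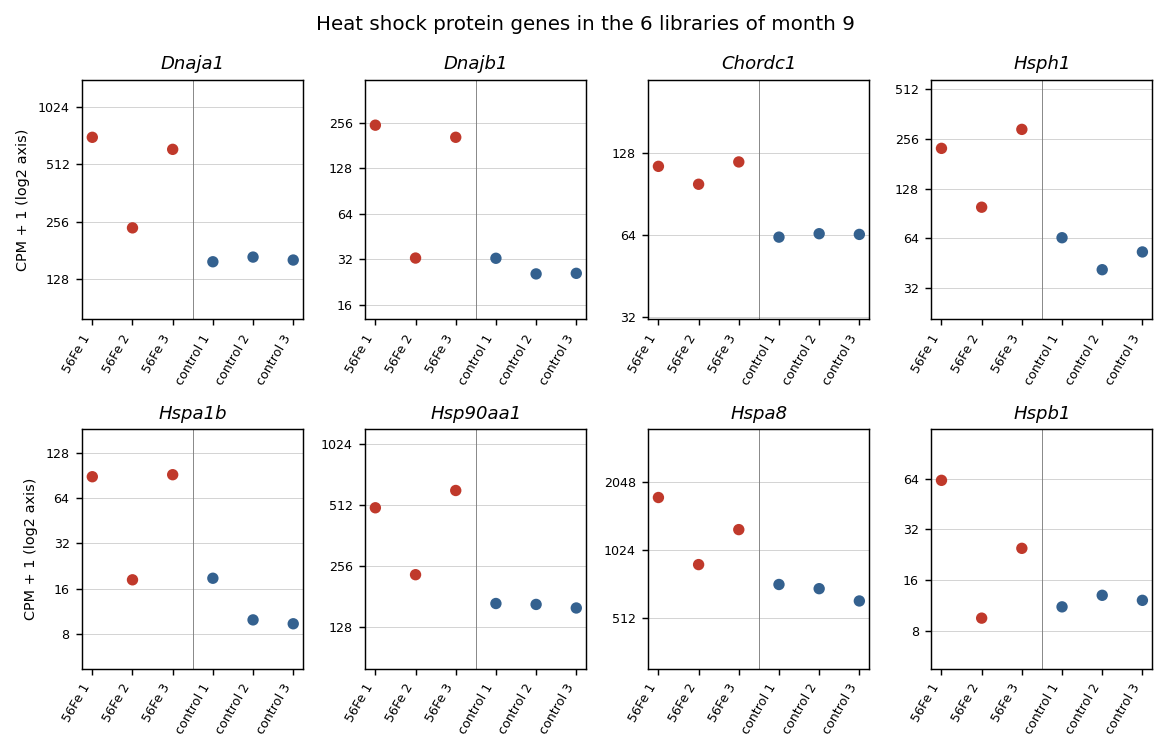
Level of 8 heat shock protein genes in each month 9 library, as CPM + 1 on a log2 axis, with the 3 56Fe libraries in red left of the 3 controls in blue. In all 8 panels 56Fe replicates 1 and 3 lie above the controls, and replicate 2 lies nearer to them, as for Dnajb1 with 247, 31.6 and 205 CPM in 56Fe livers.

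Further genes that rose are given singly and not as a group. Those named for the size of their change had to have groups without overlap, so the lack of overlap is no finding for them. Ppl, periplakin, a linker of junctions to the cytoskeleton, had 314, 18.6 and 106 CPM in 56Fe livers and 14.6, 15.7 and 6.90 CPM in controls, without overlap (log2 fold change 3.55 ± 0.66 SE; edgeR, adjusted p = 0.0147). Socs2, a feedback inhibitor of growth hormone signalling, had 207, 12.6 and 77.1 CPM in 56Fe livers and 10.5, 4.996 and 11.3 CPM in controls (3.47 ± 0.85 SE; edgeR, adjusted p = 0.0431). Socs2 did not pass with a replicate block within month 9, an alternative added after seeing the data, at 2.88. In both genes replicate 2 lay just above the highest control and replicate 1 far above it.

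Tes, a focal adhesion protein, had 30.4, 1.88 and 6.09 CPM in 56Fe livers and 1.52, 1.78 and 1.56 CPM in controls. Its log2 fold change was 2.96, or 2.80 with the replicate block, where it did not pass. Dhrs9, a retinol dehydrogenase, had 38.4, 4.66 and 50.7 CPM in 56Fe livers and 3.82, 2.76 and 3.77 CPM in controls (3.18 ± 0.60 SE; edgeR, adjusted p = 0.0152). Bcl2l11, which encodes the apoptosis activator Bim, had 81.1, 8.42 and 31.8 CPM in 56Fe livers and 7.97, 7.92 and 8.004 CPM in controls (2.34 ± 0.44 SE; edgeR, adjusted p = 0.0138). The groups did not overlap in any of these genes, as the rule that named them required, and replicate 2 was the lowest irradiated library in each.

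Rock2, a kinase that acts on the actin skeleton, had 234, 80.3 and 151 CPM in 56Fe livers and 62.7, 67.0 and 59.2 CPM in controls (1.30 ± 0.21 SE; edgeR, adjusted p = 0.00395). Zc3h12c, an RNA-binding zinc finger protein, had 45.3, 29.8 and 44.4 CPM in 56Fe livers and 24.4, 24.6 and 23.5 CPM in controls (0.72 ± 0.13 SE; edgeR, adjusted p = 0.00684). Cxadr, an adhesion protein of cell junctions, averaged 316 ± 64.5 CPM in 56Fe livers and 197 ± 10.01 CPM in controls (SD, n = 3 each), and Btg3 overlaps it on the opposite strand. The groups of these 3 genes did not overlap.

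Acsl4 and Chka, both of lipid metabolism, rose. Acsl4, which activates arachidonic acid, had 637, 152 and 475 CPM in 56Fe livers and 133, 94.5 and 121 CPM in controls (1.86 ± 0.29 SE; edgeR, adjusted p = 0.00411). Chka, the first enzyme of phosphatidylcholine synthesis from choline, had 259, 64.8 and 197 CPM in 56Fe livers and 35.6, 33.9 and 47.2 CPM in controls (2.16 ± 0.32 SE; edgeR, adjusted p = 0.00395). The groups did not overlap in either gene, a condition of a rule that named both. Chka also rose at month 1, at a log2 fold change of 2.38 (edgeR, adjusted p = 0.000111).

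The 25 measured genes of cholesterol synthesis and SREBP2 targets had a median log2 fold change of 0.39, with a median distance from the control mean of 0.89 in 56Fe replicate 1, 0.10 in replicate 2 and -0.12 in replicate 3. The list summed to 12938, 7699 and 6282 CPM in 56Fe livers and 6433, 6500 and 7342 CPM in controls, so replicates 1 and 2 lay above all controls and replicate 3 below them. Sqle, an enzyme of the pathway, had 391, 126 and 168 CPM in 56Fe livers and 134, 94.3 and 135 CPM in controls and did not pass (edgeR, adjusted p = 0.134). Among 25 bile acid genes none passed. Slc10a2, a bile acid uptake transporter that is not in that list, had 341, 77.1 and 119 CPM in 56Fe livers and 33.7, 49.6 and 35.2 CPM in controls, a log2 fold change of 2.18 that became 2.25 and no longer passed with the replicate block.

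None of the 25 genes of fatty acid synthesis passed, and the irradiated livers differed among themselves. The list's summed level was 27365, 55769 and 15566 CPM in 56Fe livers, beyond the control values of 32606, 40076 and 23468 CPM in both directions. Fasn, fatty acid synthase, had 3998, 4836 and 972 CPM in 56Fe livers and 1944, 2991 and 1474 CPM in controls. Replicate 3 thus had less than any control and replicates 1 and 2 more (edgeR, adjusted p = 0.561). Lpin1, a phosphatidate phosphatase, had 960, 490 and 509 CPM in 56Fe livers and 340, 142 and 210 CPM in controls, without overlap but short of the threshold (edgeR, adjusted p = 0.0742).

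Of 41 measured genes of fatty acid oxidation and other targets of PPAR-alpha, none passed either, at a list median of -0.33. Without 56Fe replicate 2, 5 of them passed, in a fit where 1439 of all 20836 genes tested passed, against 326 of 19685 with it. Cyp4a14, a fatty acid hydroxylase and a strong PPAR-alpha target, had 2.50, 795 and 11.8 CPM in 56Fe livers and 260, 635 and 621 CPM in controls. Cyp4a10, its relative, had 14.9, 373 and 48.6 CPM in 56Fe livers and 220, 326 and 334 CPM in controls. In both genes replicates 1 and 3 lay below all controls and replicate 2 above all of them. Ppara itself, the receptor, had 46.0, 245 and 188 CPM in 56Fe livers and 254, 291 and 327 CPM in controls, with no overlap, at a log2 fold change of -0.86 (edgeR, adjusted p = 0.179).

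Single members of other lists rose. With 1.66% of all genes past the threshold, 1 such gene in a list is near the background and is no result about the list. Ern1, the IRE1 sensor of the unfolded protein response, had 401, 146 and 311 CPM in 56Fe livers and 149, 95.8 and 139 CPM in controls (1.16 ± 0.25 SE; edgeR, adjusted p = 0.0211), and it was the only one of 31 genes of that response to pass. Its groups overlapped through replicate 2. Xbp1, whose messenger IRE1 splices, had 980, 215 and 489 CPM in 56Fe livers and 265, 185 and 232 CPM in controls and did not pass (edgeR, adjusted p = 0.0557).

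Srxn1, sulfiredoxin, an NRF2 target that restores oxidised peroxiredoxins, had 496, 56.1 and 164 CPM in 56Fe livers and 45.1, 69.5 and 52.4 CPM in controls (2.10 ± 0.44 SE; edgeR, adjusted p = 0.0223). Srxn1 did not pass with the replicate block within month 9, at 1.61. It was 1 of 30 NRF2 genes to pass, and the list's median was -0.01. Tfrc, the transferrin receptor that takes up iron, was even among irradiated livers, at 104, 107 and 92.3 CPM, and above all controls, at 45.9, 77.3 and 47.6 CPM (0.82 ± 0.21 SE; edgeR, adjusted p = 0.0406). In the iron list of 20 genes Smad6, an inhibitor of BMP signals, fell to 4.66, 7.89 and 6.43 CPM in 56Fe livers, against 10.5, 12.2 and 13.7 CPM in controls (-0.93 ± 0.19 SE; edgeR, adjusted p = 0.0138).

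Among 54 measured genes of drug metabolism 1 rose and 1 fell, against 1.66% of all genes in either direction, so the list's count is near the background and the genes are given singly. Ugt2b37, a glucuronosyltransferase, had 110, 1.05 and 38.1 CPM in 56Fe livers and 1.403, 1.67 and 2.08 CPM in controls (4.85 ± 1.03 SE; edgeR, adjusted p = 0.0224). Replicate 2 lay below all controls, and with the replicate block within month 9 Ugt2b37 did not pass, at 3.7975. Close relatives share sequence with this gene, so reads may be split between them. Ugt1a1, the enzyme that conjugates bilirubin, fell to 31.9, 44.9 and 42.6 CPM in 56Fe livers, against 65.3, 63.4 and 75.9 CPM in controls (-0.77 ± 0.18 SE; edgeR, adjusted p = 0.0267). In the 24 libraries of other months Ugt1a1 had a median of 39.0 CPM and a highest value of 67.3 CPM. Its month 9 controls thus lay in the high part of that range or above it, and the irradiated livers lay near the median. The exons of Ugt1a1 are shared with 8 other Ugt1a genes, which makes its own level uncertain. Mup13, a major urinary protein, averaged 5.38 ± 3.11 CPM in 56Fe livers and 1.57 ± 0.515 CPM in controls (SD, n = 3 each), and it too has near-identical copies.

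The 7 measured protein genes of the mitochondrial genome, of 13 in the list, were higher in all irradiated livers, although only 1 of them passed, against 1.16% of all genes higher. Mitochondrial ribosomal RNA did not share the difference, since its share of counts given above was below all controls in 56Fe replicate 1 and within their range in replicates 2 and 3. mt-Nd4, a subunit of complex I (mitochondrial genome, 10167 to 11544), had 950, 777 and 1088 CPM in 56Fe livers and 451, 350 and 472 CPM in controls (1.14 ± 0.30 SE; edgeR, adjusted p = 0.0484), and it shares bases with mt-Nd4l on the same strand. mt-Nd4 did not pass in 9 of 17 other settings run, among them upper quartile scaling and the fit without the low-count filter. The 7 genes summed to 21441, 20029 and 24073 CPM in 56Fe livers and 15060, 13597 and 16115 CPM in controls. Each of the 7 had all irradiated libraries above all controls, against 9.4% of all tested genes. The list median was 0.74, and the median distance of 56Fe replicate 2 from the control mean was 0.54. In the 24 libraries of other months mt-Nd4 ranged from 303 to 2801 CPM with a median of 1042 CPM, so the month 9 controls lay in the low part of that range. Of the irradiated livers, replicates 1 and 2 also lay below that median and replicate 3 just above it. Nuclear genes of oxidative phosphorylation did not share the difference: 0 of 75 passed, at a list median of 0.00.

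Histone genes were lower in irradiated livers. Of 18 measured replication-dependent histone genes 4 fell and 0 rose, against 0.498% of all genes lower, and the list's median log2 fold change was -0.71. All 3 irradiated libraries lay below all controls in 10 of the 18, against 8.77% of all genes. The summed level was 261, 310 and 277 CPM in 56Fe livers and 426, 359 and 418 CPM in controls. Their transcripts lack a poly(A) tail, and the labels name removal of ribosomal RNA, not selection of poly(A) RNA. The number past the threshold was 7 without 56Fe replicate 2, 0 without replicate 1 and 1 or 2 without any other single library. Over all genes, 1439 of 20836 passed without 56Fe replicate 2 and 0 without replicate 1.

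Hist1h4h, an H4 gene, fell to 24.5, 45.1 and 33.4 CPM in 56Fe livers, against 67.6, 63.6 and 70.6 CPM in controls (-0.97 ± 0.16 SE; edgeR, adjusted p = 0.00471). Hist1h1e, a linker histone gene, fell to 19.3, 29.2 and 26.6 CPM in 56Fe livers, against 52.6, 34.5 and 47.2 CPM in controls (-0.83 ± 0.20 SE; edgeR, adjusted p = 0.0289). Hist1h1c, another linker histone gene, fell to 34.6, 57.4 and 49.1 CPM in 56Fe livers, against 88.4, 65.9 and 87.3 CPM in controls. In each gene replicate 1 was the lowest and replicate 2 the highest of the irradiated livers, with no overlap with the controls. Hist1h3a, at 1.04, 3.53 and 1.37 CPM in 56Fe livers and 3.87, 5.28 and 4.16 CPM in controls, was the fourth. Its median in the 24 libraries of other months was 2.51 CPM and its highest value 4.02 CPM. Histone genes within a cluster are alike, so single members are uncertain.

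Targets of p53 that passed were lower in irradiated livers. Of 30 measured targets, 3 fell and 0 rose, against 0.498% of all genes lower, at a list median of -0.15. Gdf15, a stress-induced cytokine, had 0.950, 8.94 and 4.59 CPM in 56Fe livers and 10.3, 18.9 and 38.9 CPM in controls (-2.22 ± 0.56 SE; edgeR, adjusted p = 0.0469), and it no longer passed with the replicate block, at -2.21. In the 24 libraries of other months Gdf15 had a median of 7.18 and a highest value of 17.6 CPM, so 2 of the 3 month 9 controls lay above all of them. Plk2, a polo-like kinase, had 7.60, 14.7 and 14.3 CPM in 56Fe livers and 21.7, 31.6 and 34.0 CPM in controls (-1.25 ± 0.27 SE; edgeR, adjusted p = 0.0223). Sesn2, an inhibitor of mTORC1 signalling, had 5.70, 9.55 and 7.74 CPM in 56Fe livers and 12.7, 12.7 and 14.7 CPM in controls (-0.80 ± 0.21 SE; edgeR, adjusted p = 0.0446). The groups did not overlap in the 3 genes. In the 24 libraries of other months Plk2 had a median of 15.8 and a highest value of 31.4 CPM, and Sesn2 10.04 and 13.1 CPM. The month 9 controls of both genes lay above that median, some of them above the highest value, and the irradiated livers lay below the median.

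Other p53 targets did not pass. Cdkn1a, the p21 cell cycle inhibitor, had 8.03, 4.13 and 7.87 CPM in 56Fe livers and 2.08, 2.41 and 3.64 CPM in controls. Its irradiated values lay above all controls at a log2 fold change of 1.30 ± 0.52 (SE; edgeR, adjusted p = 0.201). Mdm2, the ubiquitin ligase for p53, averaged 51.4 ± 3.47 CPM in 56Fe livers and 47.2 ± 5.51 CPM in controls (SD, n = 3 each; edgeR, adjusted p = 0.684). Phlda3 and Eda2r, which serve as sensitive p53 targets, had log2 fold changes of -0.74 and -0.94 (edgeR, adjusted p = 0.469 and 0.224). Among 44 DNA repair genes and 35 cell cycle genes 0 passed in edgeR, and the list medians were -0.04 and -0.29.

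Further genes that fell are given singly and not as a group. Hes1, a Notch target and repressor, fell to 4.92, 6.46 and 4.93 CPM in 56Fe livers, against 8.25, 17.8 and 18.2 CPM in controls (-1.43 ± 0.32 SE; edgeR, adjusted p = 0.0241). Cebpe, a C/EBP family factor, fell to 4.32, 6.46 and 4.59 CPM in 56Fe livers, against 11.8, 11.1 and 11.1 CPM in controls (-1.14 ± 0.23 SE; edgeR, adjusted p = 0.0133). Esrra, the estrogen-related receptor alpha that drives mitochondrial genes, fell to 16.8, 22.2 and 15.8 CPM in 56Fe livers, against 32.5, 32.6 and 29.4 CPM in controls (-0.79 ± 0.15 SE; edgeR, adjusted p = 0.0117). It was 1 of 27 nuclear receptor genes to pass, and Trmt112 overlaps it on the opposite strand.

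Lhx2, a homeobox factor that is expressed in stellate cells, averaged 1.48 ± 0.320 CPM in 56Fe livers and 3.76 ± 0.872 CPM in controls (SD, n = 3 each). In the 24 libraries of other months Lhx2 ranged from 1.49 to 3.94 CPM, with a median of 2.58 CPM. Zfp503, a zinc finger protein, averaged 1.72 ± 0.203 CPM in 56Fe livers and 3.95 ± 0.0976 CPM in controls. Wdr91, a regulator of endosome maturation, averaged 18.3 ± 2.55 CPM in 56Fe livers and 28.03 ± 1.05 CPM in controls, a log2 fold change of -0.61 (edgeR, adjusted p = 0.0132). Groups did not overlap in these 3 genes, which was a condition for naming Lhx2 and Zfp503 but not Wdr91. The others named by their size of change were Pkn3, Sema6c, Pdzrn3, Gnas and Tppp, at log2 fold changes of -1.11 to -1.404. Pkn3 and Tppp did not pass with the replicate block, at -1.41 and -1.12, and Gnas is overlapped by the antisense gene Nespas.

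Markers of sinusoidal endothelium were lower together, with 1 member past the threshold. All 20 measured markers had negative log2 fold changes, under each of the 3 scalings tried, and all irradiated libraries lay below all controls in 13 of them, against 8.77% of all genes. The markers summed to 712, 924 and 807 CPM in 56Fe livers and 1155, 1029 and 1036 CPM in controls, and the list median was -0.38. Eng, endoglin, a coreceptor for TGF-beta family ligands, fell to 44.5, 52.0 and 45.2 CPM in 56Fe livers, against 70.1, 60.6 and 66.0 CPM in controls (-0.47 ± 0.13 SE; edgeR, adjusted p = 0.0476). It did not pass with the replicate block, at -0.47, nor with RLE scaling. In the 24 libraries of other months Eng ranged from 34.7 to 62.7 CPM, with a median of 54.2 CPM. The month 9 controls all lay above that median and the irradiated livers below it. Stab2, a scavenger receptor of these cells, had 119, 150 and 116 CPM in 56Fe livers and 183, 162 and 156 CPM in controls and did not pass (edgeR, adjusted p = 0.131).

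Stellate cell and matrix genes had a list median of -0.27 with 0 of 22 past the threshold, at 831 to 894 CPM in 56Fe livers and 978 to 1159 CPM in controls. Kupffer cell and macrophage markers, 24 in number, had a median of 0.40 and 0 members past the threshold. Their sum was 950, 592 and 1520 CPM in 56Fe livers and 875, 720 and 569 CPM in controls, so replicate 3 was the highest of the 6 livers. Without replicate 3 the median was 0.03. Marco, a macrophage scavenger receptor, had 19.5, 4.96 and 80.5 CPM in 56Fe livers and 5.16, 5.51 and 2.80 CPM in controls.

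Neutrophil markers had the highest median of the 45 lists, 1.22, at low levels. Their 12 measured members summed to 35.1, 7.22 and 25.3 CPM in 56Fe livers and 9.15, 9.88 and 7.29 CPM in controls, and 0 passed. Lcn2 alone gave a large part of these sums, with 15.4, 2.25 and 10.1 CPM in 56Fe livers and 3.42, 4.65 and 2.02 CPM in controls. S100a9, another member of the list, had 6.48, 0.451 and 2.53 CPM in 56Fe livers and 0.786, 0.402 and 0.846 CPM in controls. The members Ngp, Camp and Mpo, which encode granule proteins, had no more than 0.26 CPM in any library of month 9. T and NK cell markers summed to 10.7 to 14.2 CPM in 56Fe livers and 11.5 to 13.1 CPM in controls. The part of other cell types in the genes that rose was not tested.

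Acute phase proteins, 33 genes the liver secretes in inflammation, had a median of 0.26 with 0 past the threshold. The list summed to 53049, 26987 and 50629 CPM in 56Fe livers and 40001, 26219 and 37426 CPM in controls. In each group replicate 2 was the lowest, and 56Fe replicates 1 and 3 exceeded every control. Saa1 itself, the most inducible of them, stayed at 54.5, 14.96 and 68.9 CPM in 56Fe livers and 27.4, 39.3 and 19.3 CPM in controls, while it reached 5364 CPM in a library of another month.

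Among the 45 lists, 13 had a member past the threshold and 32 had none, and list medians ranged from -0.71 to 1.22. No member passed among clock, ribosomal protein, proteasome, interferon, MHC, complement, urea cycle or gluconeogenesis genes. In the 68 cytosolic ribosomal protein genes the median distance from the control mean was 0.39 in 56Fe replicate 1, -0.44 in replicate 2 and -0.20 in replicate 3, so that the irradiated livers lay on both sides of the controls. The lists were drawn up with earlier results of these data known, so their counts are descriptions.

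The genes that set the irradiated livers apart from each other were often not past the threshold. Over 1 log2 unit above all 3 controls lay 332 genes in replicate 1 alone, 124 in replicates 1 and 3 together, 48 in replicate 3 alone and 5 in replicate 2 alone. All 3 irradiated libraries did so in 4 genes. Below all controls by that margin were 150 genes in replicate 1 alone, 47 in replicates 1 and 3, 46 in replicate 3, 7 in replicate 2 and 0 in all 3. Of the 124 genes high in replicates 1 and 3, 56 passed the test, and of the 47 low in them 4 did.

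Moxd1, a monooxygenase-like protein, had 263, 0.225 and 233 CPM in 56Fe livers and 0.786, 0.689 and 0.260 CPM in controls. Mt1, a metallothionein that binds zinc and answers to metals and glucocorticoids, had 615, 4.81 and 152 CPM in 56Fe livers and 9.09, 4.31 and 6.96 CPM in controls. Selenbp2, a selenium-binding protein, had 1450, 14.1 and 1107 CPM in 56Fe livers and 185, 9.07 and 101 CPM in controls. In these 3 genes replicates 1 and 3 stood above every control and replicate 2 lay within or below the range of the controls, and none passed (edgeR, adjusted p = 0.136, 0.26 and 0.201 in the order given).

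Il1r1, the interleukin 1 receptor, had the same arrangement, with 553, 31.9 and 322 CPM in 56Fe livers and 41.7, 25.6 and 31.3 CPM in controls (edgeR, adjusted p = 0.102). Gstp2, a glutathione transferase with a near-identical neighbour, had 22.5, 0.752 and 16.98 CPM in 56Fe livers and 0.393, 0.861 and 0.781 CPM in controls and passed (edgeR, adjusted p = 0.0398). Both were selected with their values already seen.

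The largest gaps between 1 irradiated liver and the other 2 are given as a description. In replicate 1 Dusp5, a phosphatase of ERK, had 46.3 CPM, against 0.676 and 2.05 CPM in the other irradiated livers and 0.729, 1.49 and 0.651 CPM in controls. It passed (4.06 ± 0.96 SE; edgeR, adjusted p = 0.0348) but not with the replicate block, at 3.66, nor with the block within month 9, at 2.41. Fst, the activin antagonist follistatin, had 31.3, 2.10 and 1.44 CPM in 56Fe livers and 1.63, 2.699 and 2.15 CPM in controls. Egr1, an immediate early factor, had 68.5, 4.89 and 7.80 CPM in 56Fe livers and 29.3, 10.7 and 36.2 CPM in controls.

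Kcnk5, a potassium channel, was low in replicate 1, with 4.40, 51.9 and 52.3 CPM in 56Fe livers and 63.0, 33.5 and 37.7 CPM in controls. Trib1, an adaptor for protein degradation, was low in replicate 3, with 57.7, 38.7 and 6.85 CPM in 56Fe livers and 42.5, 32.5 and 44.1 CPM in controls. Cxcl13, a chemokine for B cells, was highest there, with 4.14, 1.13 and 21.2 CPM in 56Fe livers and 1.91, 0.919 and 0.911 CPM in controls. Thrsp, a lipogenic protein, followed Fasn, with 847, 1180 and 207 CPM in 56Fe livers and 483, 916 and 265 CPM in controls. Of these genes and Fst and Egr1 none passed.

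**Figure D4:**
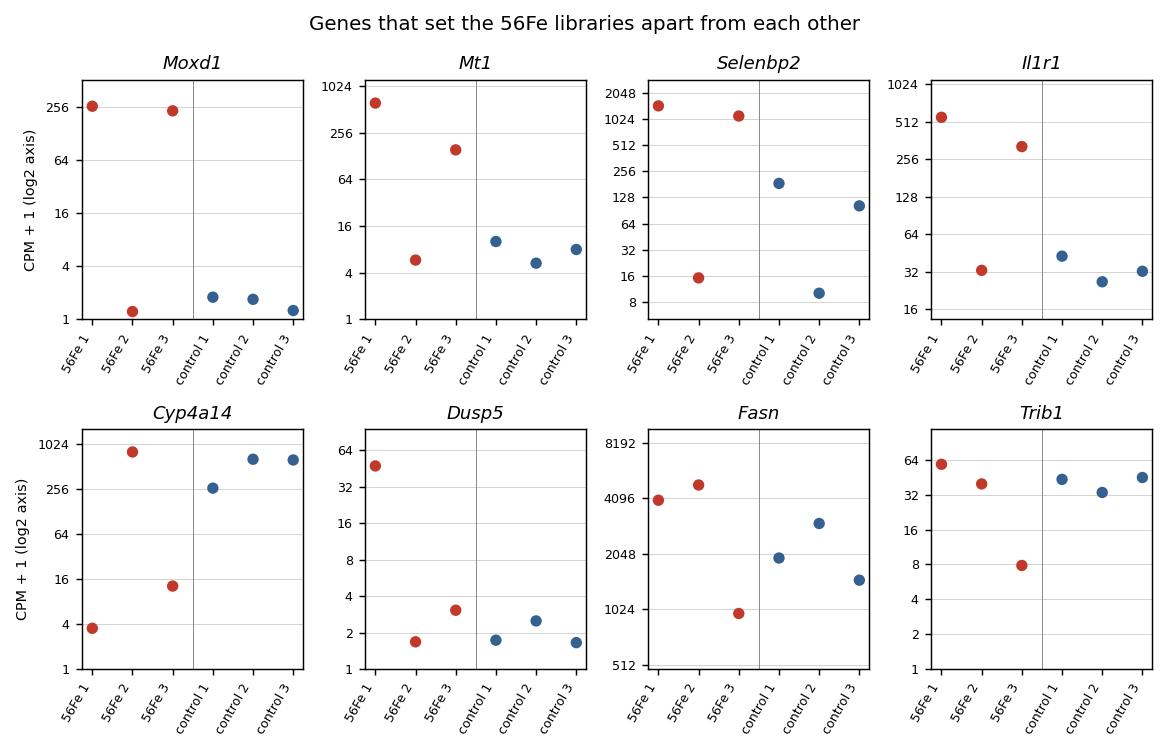
Level of 8 genes with large differences among the irradiated libraries, as CPM + 1 on a log2 axis, with the 3 56Fe libraries in red left of the 3 controls in blue. Moxd1, Mt1, Selenbp2 and Il1r1 are high and Cyp4a14 is low in 56Fe replicates 1 and 3, Dusp5 peaks in replicate 1, and Fasn and Trib1 are lowest in replicate 3.

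The month 9 effect was set against the mean effect at months 1, 2, 4 and 12, which share no library with it. The difference passed for 606 genes, 3.08% of those tested, with 431 positive and 175 negative (edgeR, adjusted p under 0.05). With upper quartile scaling the count was 603, at 304 positive and 299 negative, so the excess of positive differences depends on the scaling. Both tests use the same month 9 libraries, so the difference is no independent evidence of the month 9 effect. Without 56Fe replicate 1 the difference passed for 16 genes, and without replicates 2 and 3 for 1666 and 101. Without control replicates 1, 2 and 3 it passed for 67, 74 and 75.

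Among the heat shock genes the difference was positive and past the threshold for 13 of 21, against 3.08% of all genes in either direction. Their median log2 fold change was 0.00, -0.54, -0.83, 0.80 and 0.04 over months 1, 2, 4, 9 and 12, so the negative values at months 2 and 4 enter the difference. For Dnaja1 the difference was 1.96 log2 units (edgeR, adjusted p = 0.0023), for Dnajb1 2.89 (adjusted p = 0.00751) and for Chordc1 1.09 (adjusted p = 0.00437). In Dnaja1 replicates 1 and 3 exceeded all 24 libraries of other months, which ranged from 71.5 to 302 CPM. Hsph1 reached 261 CPM in a library of another month, so its replicate 1 was not beyond that range.

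Histone genes had list medians of 0.09, -0.04, -0.03, -0.71 and -0.07 at months 1, 2, 4, 9 and 12, and the difference passed for 3 of the 18, all negative, against 3.08% of all genes in either direction. For Hist1h4h it was -0.96 (edgeR, adjusted p = 0.0083), and its month 9 controls, at 63.6 to 70.6 CPM, lay above all 24 libraries of other months, whose highest value was 62.8 CPM. Its irradiated value in replicate 1 lay below the lowest of these libraries, 28.05 CPM, and the values of replicates 2 and 3 lay within their range. For mt-Nd4 the difference did not pass, at 0.35 (edgeR, adjusted p = 0.628), and its log2 fold change at month 1 was 1.24. Endothelial markers had medians of 0.12, -0.04, -0.08, -0.38 and -0.06 at months 1, 2, 4, 9 and 12, with the difference past the threshold for 1 of 20, a share near the 3.08% of all genes.

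**Figure D5:**
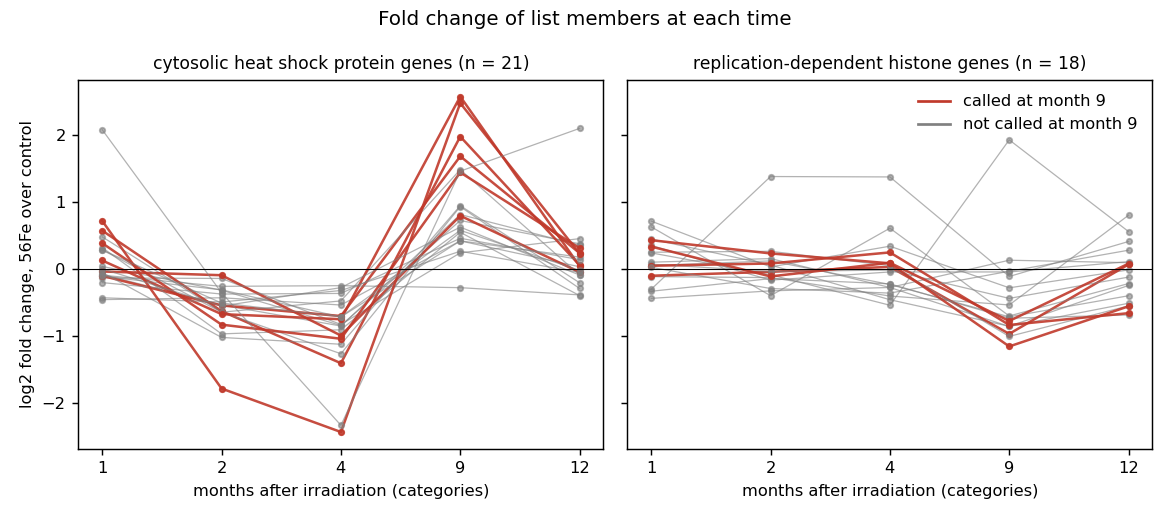
Log2 fold change of 56Fe over control livers at 1, 2, 4, 9 and 12 months (evenly spaced categories) for 21 heat shock protein genes (left) and 18 histone genes (right), 1 line per gene, in red where called at month 9. The list medians at month 9 are 0.80 and -0.71, and the heat shock median at month 4 is -0.83.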

How the data were processed

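The authors deposited 1 table of raw read counts per Ensembl gene for 30 livers, of which the 6 of month 9 were compared. Per the labels, reads were aligned with STAR 2.5.3a to GRCm38, and its GeneCounts option counted them against Gencode M14. Which strand setting was taken is not given in the sources used here, and the totals per library are below the read numbers that the series text gives, which was not resolved. Gene symbols and positions were taken from Gencode M21 for 51633 of 51826 identifiers.

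Counts of all 30 libraries were fitted with edgeR 4.0.16 in R 4.3.3 with 1 coefficient per time and arm, a robust quasi-likelihood fit and TMM scaling, after filterByExpr (minimum count 10, minimum total 15). Genes with a Benjamini-Hochberg adjusted p under 0.05 over all genes tested were called. Shared estimates of spread assume that the month 9 groups vary like the other groups. The fit was tested on simulated data with the same spread in every group, so that test does not cover the wider spread among the irradiated livers. P-values measure the spread between samples that the labels call biological replicates. Spread within a group was taken on log2(CPM + 1).

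Same-numbered 56Fe and control libraries deviated together from their group means (r = 0.178, 0.297 and 0.115 over 13340 genes with at least 1 CPM). However, 56Fe replicate 3 correlated more with control replicate 1 (r = 0.237). By a rule of r over 0.1 in every same-numbered pair, a replicate block was run as an alternative. The main fit had no pairing. The replicate block added the replicate number as a factor over all libraries of the series, so it is not a paired test of the compared livers. Fits paired within the compared month are named as such. No 2 libraries were identical.

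The comparison and the 45 gene lists were chosen with earlier results of these data known. Named genes were up to 12 higher and 12 lower called genes of largest change (mean of at least 1 CPM, groups apart, no predicted genes), the 6 most abundant called genes, up to 3 called members per list, Cdkn1a, Mdm2, Phlda3 and Eda2r, the 4 largest gaps per irradiated library (mean of at least 5 CPM), and the 6 smallest adjusted p-values of the difference from other months among called genes. Hspa1b, Hist1h1c and uncalled list members were named as members of their lists. A gene that met these rules is not reported here. Il1r1 and Gstp2 were selected with their values already seen. Alternatives were RLE and upper quartile factors, other filters, DESeq2 1.42.0, limma 3.58.1 voom with sample weights, the block, fewer libraries, a Gm26917 covariate, a pseudocount of 0.25 CPM and leaving out each library. Promoters are from RefSeq. Figures were drawn with Python 3.11.15 and matplotlib 3.10.9.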

Additional observations from a re-analysis of the deposited data

Results flagged for a closer look

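The effect of 56Fe at month 9 differed from the mean of the effects at months 1, 2, 4 and 12 for 606 genes (edgeR, adjusted p under 0.05). The genes below are among them and were named by rule. The value in brackets after each gene is the month 9 effect minus that mean, in log2 units, tested as an interaction in the fit of all 30 libraries.

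The difference was positive for Dnaja1 (1.96), Dnajb1 (2.89), Hsph1 (2.33), Hsp90aa1 (1.74) and Chordc1 (1.09) among the heat shock genes. In lipid and bile acid handling it was positive for Acsl4 (2.03), Chka (1.46) and Slc10a2 (2.698), although the effect for Chka at month 1, 2.38 (edgeR, adjusted p = 0.000111), stood against 2.16 at month 9. Further positive differences were found for Ppl (3.98), Socs2 (3.88), Tes (3.16), Dusp5 (4.26), Rock2 (1.36), Cxadr (0.59) and Bcl2l11 (2.65). Others were found for Ugt2b37 (5.28), Dhrs9 (2.80), Srxn1 (2.24), Ern1 (1.03), Tfrc (0.89) and Zc3h12c (0.94). Some of these differences include an opposite effect at another month. Chordc1 fell at month 4, at a log2 fold change of -0.99 (edgeR, adjusted p = 0.00211), against 0.80 at month 9. Tfrc fell at month 4 (-0.90; edgeR, adjusted p = 0.0183) and Zc3h12c at month 1 (-0.80; edgeR, adjusted p = 0.000553).

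The difference was negative for the p53 targets Gdf15 (-2.63), Plk2 (-1.29) and Sesn2 (-0.99) and the histone genes Hist1h3a (-1.20) and Hist1h4h (-0.96). It was also negative for Lhx2 (-1.50), Cebpe (-1.28), Esrra (-0.69), Smad6 (-0.84) and Pkn3 (-1.60). The remaining genes were Gnas (-1.45), Sema6c (-1.41), Pdzrn3 (-1.17) and Wdr91 (-1.02). Wdr91 rose at month 1, at a log2 fold change of 0.68 (edgeR, adjusted p = 0.000787), which enters its difference. Groups of 3 libraries are too small for a check of single outlying samples, and the spread among the irradiated livers is described above.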

How the results depend on the processing

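The 326 genes called at month 9 became 493 with the stricter filter, 901 with DESeq2, 838 with limma voom with sample weights (voom below), 18 in the 18 libraries of months 4, 9 and 12, and 0 in edgeR on the 6 libraries alone (2079 at an unadjusted p under 0.05). The replicate block gave 284. Paired fits within month 9, added after seeing the data, gave 395 in all 30 libraries and 15 in the 6 libraries alone. Leaving out single libraries gave 0 to 1439. The 606 genes of the difference became 1375 with DESeq2, 1234 with voom, 0 in those 18 libraries (2861 at an unadjusted p under 0.05) and 16 to 1666 without single libraries.

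With a pseudocount of 0.25 CPM, genes with a range over 1 log2 unit numbered 3770 in 56Fe livers and 2047 in controls, and genes of 1 library apart 710, 737 and 280 in 56Fe replicates 1, 2 and 3, and 99, 376 and 270 in control replicates 1, 2 and 3, so the order of the groups held and that of the control libraries did not.

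None of the 44 named genes past the threshold changed sign under a setting run, and 5 of the 15 others did. Each setting reuses libraries on which the 44 were called, so a kept sign is no separate evidence. Egr1 was -1.34 with voom, -0.17 with the replicate block, -0.66 with the block within month 9 (added after seeing the data) and -1.99 to 0.57 without single libraries. Thrsp was -0.065 with voom and -0.084 to 0.98 without single libraries. Without single libraries Fst was -0.27 to 2.93, Kcnk5 -0.68 to 0.23 and Trib1 -0.78 to 0.26. The block, also within month 9, ended the calls named beside the genes above. The cause of these changes was not tested.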
